A study of Mus musculus with 30 samples.

Results

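The genes described here code for proteins of the mitochondrial respiratory chain, the mitochondrial ribosome and the mitochondrial import channels, followed across adult mouse tissues. They were chosen by symbol from shortened copies of the study's probe lists. Every gene in these whose symbol begins with Nduf, Sdh, Uqcr, Cox, Atp5, Mrpl, Mrps, Timm or Tomm was taken. This gave 106 genes, each with 1 probe, of the 25030 probes in the authors' value table. The rule reads gene names only. The shortened copies gave a symbol for 5622 of the 25030 probes, so some subunits, such as muscle forms of complex IV, are not analysed here. By role the 106 genes were 27 subunits of complex I, 3 of complex II, 6 of complex III, 5 of complex IV and 12 of complex V (53 respiratory subunits), 35 proteins of the mitochondrial ribosome (19 of its large and 16 of its small subunit), 11 import proteins (7 of the inner and 4 of the outer membrane), 2 assembly factors of complex I, 4 of complex IV, and Atp5sl, whose current symbol is Dmac2.

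Expression was measured in 15 organs of adult male C57BL/6 mice, 28 weeks old by the labels, which name no treatment and no genetic change. They comprised the striated muscles (heart and skeletal muscle), kidney and bladder, liver and lung, stomach with small and large intestine, brain cortex, cerebellum and eyes, and skin, bone and fat, with 2 two-colour Agilent arrays each and 30 in all. The series description states that replicate RNAs came from different animals, except that bone and fat had a single replication, although 2 arrays carry each of those labels. Cy3 carried the tissue RNA and Cy5 a common reference, a commercial pool of cell line RNA mixed with RNA of embryonic stem (ES) cells, and the dyes were never swapped. Every value below is log2(Cy3/Cy5), so 0 means as much signal in the tissue as in the reference, and a difference of 1 between tissues means 2-fold. Each probe has its own affinity, so that values of one gene are compared between tissues and never with those of another gene. All 106 probes gave Cy3 signal well above background on all 30 arrays, and therefore all 106 passed the filter on dim probes, as did 21026 of the 25030 probes (84%). No spot was saturated. The median Cy3 signal of an array ranged from 85.7 to 175 scanner units, and 53.9 to 76.9% of the probes were well above background. Depth is not defined for arrays. Their number, 2 per tissue, limits the precision.

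The respiratory chain sits in the inner mitochondrial membrane. Complexes I and II pass electrons from NADH and succinate to ubiquinone, complex III passes them on to cytochrome c, complex IV hands them to oxygen, and complex V uses the proton gradient so formed to make ATP. Most subunits are encoded in the nucleus, made in the cytosol and imported through the TOM complex of the outer and the TIM complexes of the inner membrane. A few core subunits are encoded in mitochondrial DNA and are made by the mitochondrial ribosome, whose proteins (the Mrpl and Mrps genes) are again nuclear products. Cardiac muscle is known for its dense mitochondria and its reliance on oxidation of fatty acids.

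The replicates of some organs stood apart. In large intestine 26 of the 106 genes (24.5%) differed by more than 1 log2 unit between the 2 arrays, in fat 10 (9.43%) and in bone 1, which was Mrpl32 (-0.14 and 1.90). No gene did so in the other 12 tissues. Over all probes past the filter the correlation between replicates was 0.671 for fat, 0.798 for large intestine and 0.849 for bone, and 0.947 to 0.991 elsewhere. The first large intestine array carried the small intestine gene 2010204N08Rik at 7.91 against -0.46 on the second, and the first fat array carried the kidney gene 1700011H14Rik at 7.04 against 0.10. Markers otherwise followed the labels where these matter below, but they were chosen with earlier results of these data known. They are therefore no independent check of the labels. The median of 2 heart markers was 5.05 and 5.11 on the heart arrays, that of 3 liver markers 8.07 on both liver arrays, and that of 4 kidney markers 3.95 and 4.18 in kidney against -0.02 and 0.06 in bladder. These markers were not confined to 1 organ. The kidney markers had medians of 1.6 and 1.8 on the liver arrays, and the heart markers 2.25 and 2.36 on the bladder arrays. The median of 9 skeletal muscle markers was 4.39 in skeletal muscle and also 4.39 in bone, 3.66 in skin and 2.44 in eyes, against 0.08 in heart. In whole organs a lower share of a cell type and less RNA per cell cannot be told apart. The main counts below that rest on the mean of all tissues are therefore also given without large intestine, fat and bone.

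The heart had the highest tissue mean for 75 of the 106 genes and the lung the lowest for 60. To place the organs in order, the mean of each gene over the 15 tissues was subtracted, and the median was taken over the genes of a class on every array. For the 53 respiratory subunits this median was 1.68 and 1.69 on the heart arrays. Skeletal muscle followed with 0.45 and 0.76, bone with 0.46 and 0.61, and kidney with 0.51 and 0.45. These 3 organs overlapped each other and lay below the heart. Under median centring they came apart, with means of 1.28 in skeletal muscle, 0.78 in kidney and 0.12 in bone, below the heart at 1.66. Stomach reached 0.23 and 0.35, liver -0.06 and 0.10, and small intestine 0.03 and -0.01. Under median centring these organs overlapped, with -0.01 and 0.255 in stomach, 0.122 and 0.025 in liver, and 0.252 and -0.555 in small intestine. At the low end of the main values were bladder (-0.74 and -0.69) and lung (-1.07 and -1.12), which did not overlap with each other or with any other organ. Under median centring both overlapped with other organs. Bladder (mean -0.22) then came before large intestine, fat, eyes and skin, and lung stayed last by its mean (-1.08), but its arrays (-0.55 and -1.6) spanned values of fat, eyes and skin. The heart was the highest tissue for 50 of the 53 respiratory subunits, and the lung was the lowest for 37.

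**Figure D1:**
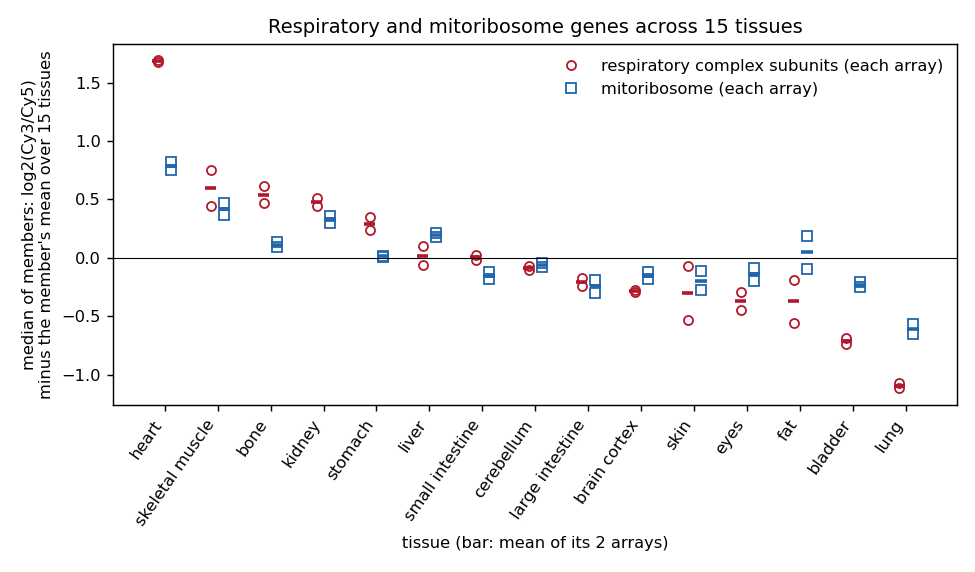
Median over the 53 respiratory subunits (circles) and the 35 mitochondrial ribosome proteins (squares) of log2(Cy3/Cy5) minus each gene's mean over the 15 tissues, with 1 point per array and a bar at the mean of the 2 arrays. Heart stands at 1.68 and 1.69 for the respiratory subunits and at 0.82 and 0.75 for the ribosome proteins, and lung is lowest in both.

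The 35 proteins of the mitochondrial ribosome followed a flatter order. Their median was 0.82 and 0.75 in heart, 0.37 and 0.47 in skeletal muscle, 0.30 and 0.36 in kidney and 0.18 and 0.21 in liver, and the lung was again last with -0.57 and -0.65. The heart was the highest tissue for 19 of the 35, skeletal muscle for 6 and liver for 5. When the arrays were centred on their medians in place of loess normalisation, skeletal muscle (0.80) came before kidney and heart (0.60 each) for this class, and skin (-0.74) was last, with lung arrays at 0.04 and -1.03. On the Cy3 level alone, with the processed signals and with the authors' values, heart was first and lung last for this class as well. The processed signals and the authors' values are nearly the same numbers and do not count as separate checks. The gap between the medians of the respiratory and the ribosome class was widest in heart, 0.90 ± 0.05 (SD, n = 2), followed by bone with 0.43 ± 0.07. On the Cy3 level alone the heart gap was 0.45, with bone at 0.39, and under median centring it was 1.06, with skeletal muscle (0.48) and not bone (0.40) next. The gap was lowest in lung (-0.48 ± 0.03), bladder (-0.48 ± 0.06) and fat (-0.42 ± 0.05), and it was also negative on both arrays, by less, in eyes, liver, brain cortex and cerebellum. In the Cy3 level alone it was above 0 on both cerebellum arrays (mean 0.06) and on 1 of 2 in brain cortex.

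**Figure D2:**
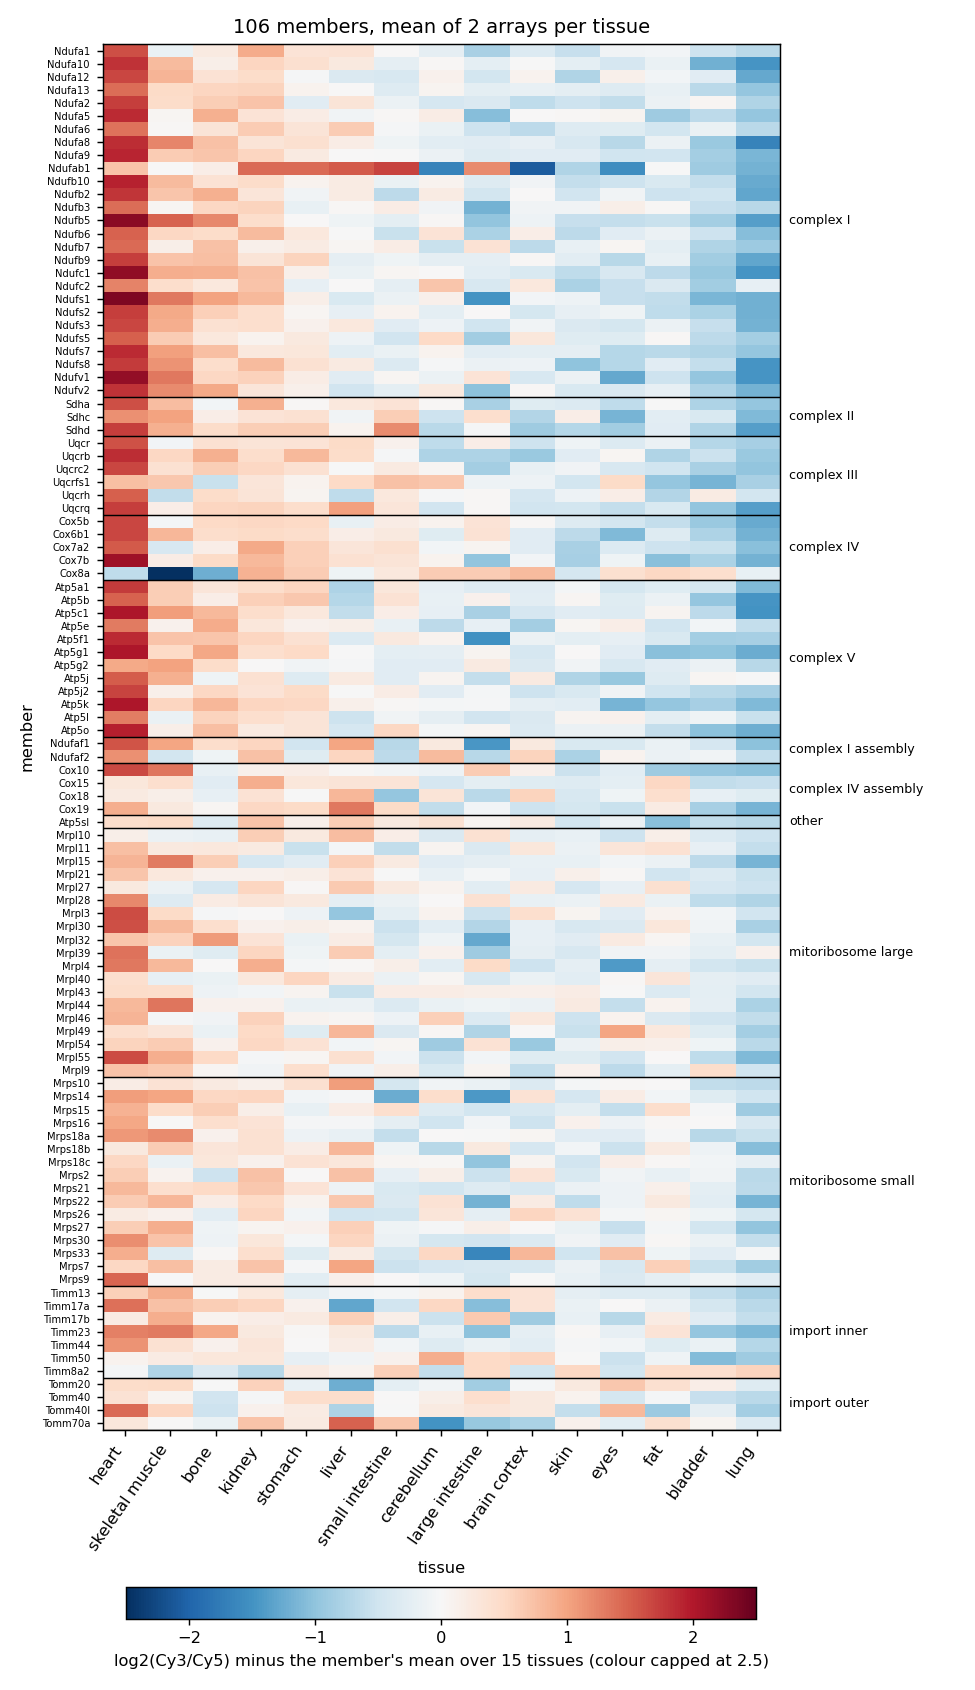
Heat map of the 106 genes (rows, grouped by class) in 15 tissues (columns, ordered as for the respiratory subunits); colour is the mean of 2 arrays of log2(Cy3/Cy5) minus the gene's mean over the tissues, capped at 2.5. The heart column is red through complexes I to V except for Cox8a, and the lung column is mostly blue.

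Nearly all of these genes varied among the organs. In an F-test across the 15 tissues, fitted with limma over all probes and adjusted by Benjamini and Hochberg, 105 of the 106 passed an adjusted p of 0.05 (106 without large intestine, fat and bone), beside 90.7% of all probes tested, so the share is close to that of the array as a whole. The exception was Mrps18c, a small-subunit protein (adjusted p = 0.0632), with values of -0.01 and -1.95 in large intestine. The range from the highest to the lowest tissue mean had a median of 2.92 log2 units over the respiratory subunits, 1.83 over the ribosome proteins and 1.88 over the import proteins. The median SD between replicates was 0.11. The 5 widest ranges all belonged to complex I: Ndufs1 (3.83, or 14.2-fold, heart over large intestine), Ndufab1 (3.79, or 13.8-fold, small intestine over brain cortex), and Ndufc1 (3.71), Ndufv1 (3.65) and Ndufb5 (3.64), each from heart to lung. The lowest value of Ndufs1 rests on 1 large intestine array, -1.80 against 0.41 on the other. The 5 narrowest were the ribosome proteins Mrpl40 (0.93, or 1.91-fold), Mrpl43 (1.02), Mrps26 (1.02) and Mrpl27 (1.17) and the import pore Tomm40 (1.12).

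The heart was first compared with the mean of the other 14 tissues, and a gene was called where the adjusted p was under 0.05 and the difference at least 1 log2 unit. By this rule 68 of the 106 genes were higher in heart and none was lower, beside 9.68% of all probes higher and 9.16% lower. The median difference was 1.46 over the 106 genes and -0.09 over all probes. Both heart arrays lay above all the others for 69 genes, beside 4.18% of all probes. Among the respiratory subunits 50 of 53 were higher (median difference 1.80), namely 26 of 27 in complex I, 3 of 3 in complex II, 5 of 6 in complex III, 4 of 5 in complex IV and 12 of 12 in complex V. Of the ribosome proteins 11 of 35 passed (6 of 19 large-subunit and 5 of 16 small-subunit proteins, median 0.80), and of the import proteins 4 of 11 (median 0.49). The 24 ribosome proteins that did not pass all had differences above 0. Both assembly factors of complex I passed, and among those of complex IV only Cox10, the farnesyltransferase that makes haem O, with 1.76 ± 0.20.

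The largest differences were in complex I. Ndufs1, the large iron-sulphur subunit of the arm that oxidises NADH, had 3.18 and 3.09 on the heart arrays. Elsewhere it ran from -1.80 to 2.33, with skeletal muscle next (1.91 and 2.33), so the heart arrays did not overlap with any other. The difference was 2.50 ± 0.34 (SE; limma, adjusted p = 8.24e-06). Ndufb5, an accessory subunit of the membrane arm, was at 3.24 and 3.11 in heart and at -0.38 and -0.55 in lung. Its difference from the other tissues was 2.42 ± 0.16 (limma, adjusted p = 9.96e-10). Ndufc1, another accessory subunit, had 3.12 and 3.14 in heart, with skeletal muscle at 1.66 and 1.96. It differed by 2.38 ± 0.13 (limma, adjusted p = 8.23e-11). For these 3 genes every heart array was above every array of the other 14 organs.

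Large differences were also found in the later complexes. Cox7b, a small subunit of complex IV, was at 3.03 and 3.0 in heart, 2.27 ± 0.25 above the other tissues (limma, adjusted p = 6.37e-07). Atp5c1, the rotor shaft (gamma subunit) of complex V, was at 2.81 and 2.79 in heart and -0.58 and -0.88 in lung, with a difference of 2.17 ± 0.21 (limma, adjusted p = 1.71e-07). Uqcrq, a small subunit of complex III, reached 2.57 and 2.67 in heart and differed by 1.85 ± 0.15. In complex II, Sdhd, a membrane anchor, differed by 1.86 ± 0.20 and Sdha, the flavoprotein, by 1.73 ± 0.23. The 3 respiratory subunits that were not called were Ndufab1 (0.76 ± 0.20), Uqcrfs1 (0.81 ± 0.17) and Cox8a (-0.68 ± 0.11).

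**Figure D3:**
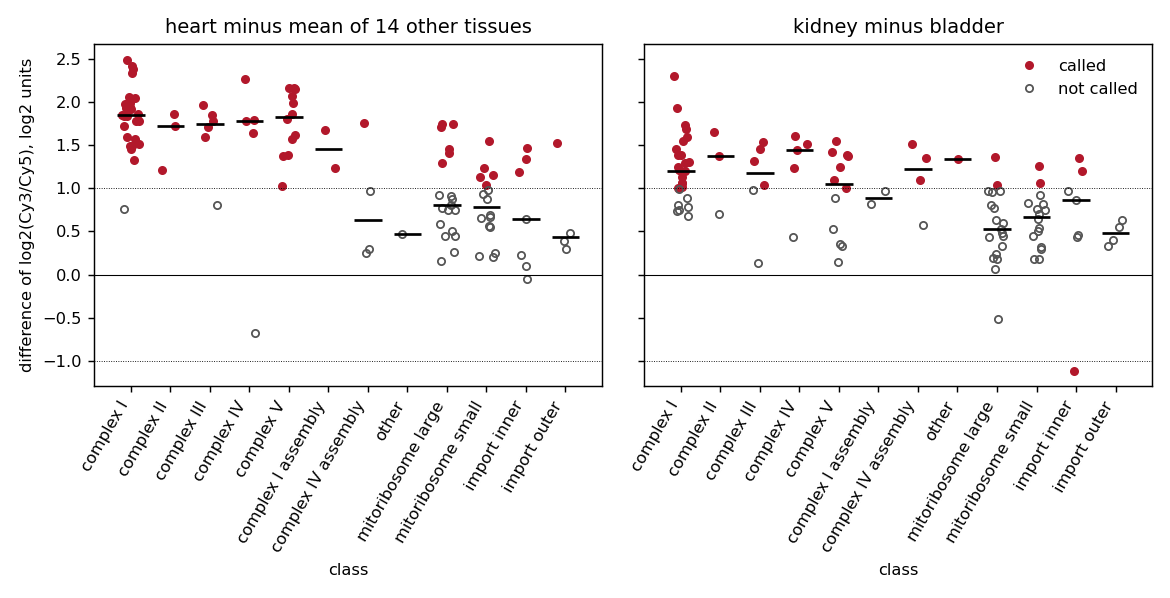
Difference in log2 units for each of the 106 genes by class, heart against the mean of the other 14 tissues (left) and kidney against bladder (right); filled points were called, open points were not, bars are class medians and dotted lines mark a difference of 1. In heart 50 of the 53 respiratory subunits and 11 of the 35 ribosome proteins are filled, and in kidney 37 and 4.

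Leaving out organs or scan days moved the count little. Without large intestine, fat and bone, 70 genes were higher in heart, beside 9.89% of all probes, among them 50 respiratory subunits and 12 ribosome proteins. The organs with both arrays scanned on the first day were 6 (heart, liver, kidney, bladder, cerebellum and eyes). Within these, 69 genes were called higher in heart than in the mean of the other 5, beside 10.7% of all probes. Cox8a was called lower, beside 12.1%. The median differences were 1.81 for the respiratory subunits and 0.71 for the ribosome proteins.

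Heart and liver were hybridised on the same slide, so their comparison lies within 1 slide and scan day. The heart was higher for 62 of the 106 genes, beside 14.7% of all probes, and lower for 1, beside 12.5%. The medians were 1.23 over all 106, 1.65 over the respiratory subunits (47 of 53 called) and 0.70 over the ribosome proteins (10 of 35 called). Ndufs1 was again first with 2.71 ± 0.46 (limma, adjusted p = 8.55e-05), the liver arrays being at 0.56 and 0.30. It was followed by an import protein. Timm17a, a channel subunit of the TIM23 translocase, had 1.44 and 1.37 in heart and its lowest values in liver, -1.16 and -1.38. This was a difference of 2.67 ± 0.26 (limma, adjusted p = 1.12e-07), while its paralogue Timm17b was at -0.19 and -0.20 in heart and 0.26 and 0.13 in liver and was not called. Atp5c1 differed by 2.64 ± 0.29 (limma, adjusted p = 4.51e-07). The gene lower in heart was Tomm70a, an outer membrane receptor for carrier proteins. Liver was its highest tissue (0.16 and 0.17), heart was at -0.96 and -1.09, and the difference was -1.19 ± 0.33 (limma, adjusted p = 0.00724). On the Cy3 level alone this was -0.89 and no longer passed the minimum difference.

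Skeletal muscle was compared with the other organs by the same rule. Against the mean of the other 14 tissues 18 genes were higher, beside 10.6% of all probes, and 1 was lower, beside 15.9%. The median difference was 0.54 over the 106 genes and -0.14 over all probes. The count depended on the scaling, with 57 higher under median centring (10.7% of all probes), 41 in the authors' value table (16.1%) and 32 on the Cy3 level alone (11%). It also depended on single arrays, with 28 without the first and 12 without the second muscle array. With scan day as a random block it was 28 as well. Bone is among the other 14 tissues and carried as much muscle marker RNA as muscle did; without bone the count was 21, and without large intestine, fat and bone 18.

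Of the 18 genes called higher in muscle 11 were among the 53 respiratory subunits (20.8%) and 4 among the 35 ribosome proteins. The ribosome share, 11.4%, is close to that of all probes (10.6%). Mrpl44, a large-subunit protein with an RNase III fold, had 1.31 and 1.43 in muscle, with heart next at 0.91 and 0.80. The difference from the mean of the others was 1.43 ± 0.14 (limma, adjusted p = 1.5e-07). Mrpl15 (0.08 and 0.17) differed by 1.39 ± 0.16, and Mrps18a (1.17 and 1.24, with heart at 1.12 and 1.09) by 1.26 ± 0.16. The small-subunit proteins Mrps18a, Mrps18b and Mrps18c are paralogues. Mrps18b had its highest mean in liver (-0.06 and -0.12), and Mrps18c, which did not pass the F-test, in heart (0.56 and 0.46). Differences between the paralogues were not tested.

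The gene lower in muscle was Cox8a, the ubiquitous form of the smallest subunit of complex IV. It was at -2.43 and -2.32 in muscle, followed by bone at -0.85 and -1.16 and heart at -0.40 and -0.44, and both muscle arrays lay below all others. The highest organs were kidney (1.12 and 1.03) and brain cortex (1.07 and 0.94). The difference of muscle from the other tissues was -2.77 ± 0.11 (limma, adjusted p = 6.28e-12), which is 6.83-fold lower. Among the 53 respiratory subunits it alone correlated negatively with their median profile over the 15 tissue means (r = -0.41 as a description; the median r of the 53 was 0.90, and 44 were above 0.8).

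Heart and skeletal muscle, the striated muscles of the set, were compared directly. Here 33 genes were higher in heart, beside 9.17% of all probes, and none was lower, beside 6.02%. They included 27 of the 53 respiratory subunits (median 1.09), 5 of the 35 ribosome proteins (median 0.40) and none of the 11 import proteins. By complex these were 11 of 27 in complex I, 0 of 3 in complex II, 5 of 6 in complex III, 4 of 5 in complex IV and 7 of 12 in complex V. Uqcrh, the hinge protein of complex III that contacts cytochrome c1, was at 2.18 and 2.22 in heart and at 0.00 and 0.21 in muscle. It differed by 2.10 ± 0.21 (limma, adjusted p = 4.68e-07). Cox8a was 1.95 ± 0.15 higher in heart (limma, adjusted p = 2.79e-08). Cox7b, at 3.03 and 3.0 in heart against 0.81 and 1.35 in muscle, was 1.93 ± 0.34 higher (limma, adjusted p = 0.000265). Cox7a2, the form of complex IV subunit VIIa found in most organs and named here after its values were seen, had 2.18 and 2.28 in heart and 0.14 and 0.47 in muscle (difference 1.93 ± 0.15). By contrast Uqcrfs1, the Rieske iron-sulphur protein of complex III, was at 1.71 and 1.66 in heart and 1.48 and 1.75 in muscle, and the arrays overlapped.

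This comparison depended on the scaling. Under median centring of each array 5 of the 33 genes remained called (Cox7a2, Cox8a, Mrpl39, Ndufaf2 and Uqcrh), the sign turned for 23 of the 106, and the medians were 0.35 for the respiratory subunits and -0.16 for the ribosome proteins. Of all probes, 4.93% were then higher in heart and 6.24% lower. On the Cy3 level alone 9 genes were called, beside 7.32% of all probes higher and 6.3% lower, and 27 with the authors' values, beside 11.2% and 8.68%. With scan day as a random block Timm17b was called lower in heart, at -1.01 (limma, adjusted p = 0.0485). Heart and muscle shared no slide and no scan day, so that slide, scan day and tissue cannot be told apart here.

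**Figure D4:**
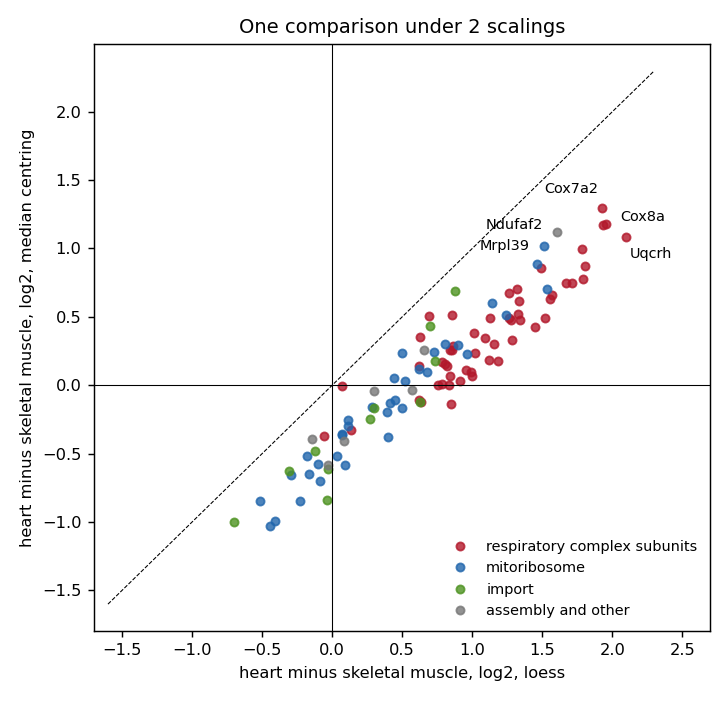
Difference between heart and skeletal muscle in log2 units for each of the 106 genes, after loess normalisation (x axis) and after median centring of each array (y axis); the dashed line marks equal values. The points lie below the line, and the 5 named genes are those called under both scalings.

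The kidney was compared in the same way. The median difference from the other tissues was 0.46 over the 106 genes and -0.11 over all probes, and 2 genes were called higher, beside 9.81% of all probes, and none lower, beside 9.46%. These were Ndufab1 (1.52 ± 0.20; limma, adjusted p = 5.72e-06) and Cox7a2 (1.02 ± 0.11; limma, adjusted p = 6.1e-07), both at levels that other organs also reached. Cox7a2 lay at the minimum difference and fell just short of it on the Cy3 level alone (0.99), with scan day as a random block and without the first kidney array (0.99). With no minimum difference 59 genes were higher, beside 17.7% of all probes, and 2 lower, beside 24%, at the same adjusted p. With it the count was 4 without the first fat array, 21 under median centring, and 3 without large intestine, fat and bone. The split of all probes under median centring was 11% higher and 6.48% lower.

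Kidney and bladder shared a slide. Between them 47 genes were higher in kidney, beside 11.2% of all probes, and 1 was lower, beside 11.8%. The medians were 1.22 for the respiratory subunits (37 of 53 called) and 0.60 for the ribosome proteins (4 of 35 called). The ribosome share, 11.4%, is close to that of all probes. Ndufab1 led with 1.15 and 1.11 in kidney and -1.18 on both bladder arrays, a difference of 2.31 ± 0.27 (limma, adjusted p = 1.77e-06). Ndufs1 differed by 1.94 ± 0.46 (limma, adjusted p = 0.00256). Ndufa10, an accessory subunit of complex I, was at 1.37 and 1.15 in kidney and -0.52 and -0.43 in bladder, which gave 1.74 ± 0.25 (limma, adjusted p = 1.64e-05). The gene lower in kidney was Timm8a2, an intermembrane space chaperone, with -0.32 and -0.42 in kidney and 0.69 and 0.81 in bladder (-1.11 ± 0.29; limma, adjusted p = 0.00543). On the Cy3 level alone it was -0.99, just short of the minimum difference. Under median centring 28 genes were higher in kidney, with 7.91% of all probes higher and 13.1% lower.

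A few genes kept an order of their own. Ndufab1, the mitochondrial acyl carrier protein, serves as a complex I subunit and in fatty acid and lipoic acid synthesis. It was highest in small intestine (1.49 and 1.33), liver (1.34 and 1.13), kidney (1.15 and 1.11) and stomach (1.04 and 1.21), with heart at 0.41 and 0.42. The neural organs were lowest, eyes at -1.72 and -1.97, cerebellum at -1.94 and -1.98, and brain cortex at -2.46 and -2.29. It was the complex I gene least like the median profile of its complex (r = 0.38 over 15 tissue means), and Ndufa13, an accessory subunit also known as GRIM-19, the most like it (r = 0.99). In complex IV these were Cox8a (r = -0.12) and Cox5b (r = 0.95), in complex III Uqcrfs1 (r = 0.55) and Uqcrq (r = 0.92), and in complex V Atp5j (r = 0.57) and Atp5j2 (r = 0.94). The ribosome proteins were less alike, with a median r of 0.69 to their own median profile and 7 of 35 above 0.8. The points of each r share the same 30 arrays and the same reference, so no p is given.

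**Figure D5:**
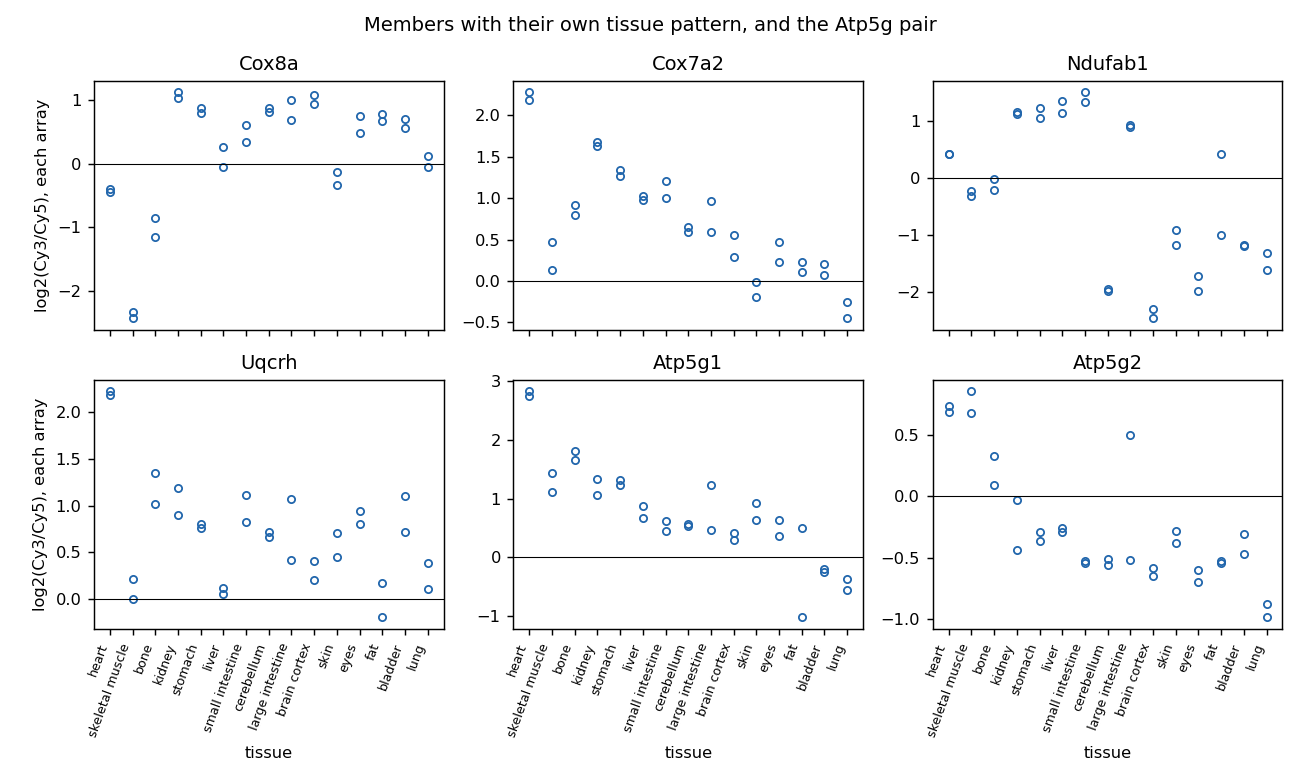
log2(Cy3/Cy5) on each of the 30 arrays (1 circle each) for Cox8a, Cox7a2, Ndufab1, Uqcrh, Atp5g1 and Atp5g2, with tissues in the order of the respiratory subunits. Cox8a falls to -2.43 and -2.32 in skeletal muscle, Ndufab1 is lowest in brain cortex, and the heart arrays of Atp5g1 (2.74 and 2.83) stand above all others while those of Atp5g2 (0.73 and 0.69) overlap with muscle.

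Atp5g1 and Atp5g2 code for the same mature c subunit of the complex V rotor with different import signals. Atp5g1 was at 2.74 and 2.83 in heart, 1.1 and 1.43 in muscle and -0.57 and -0.38 in lung, and differed between heart and muscle by 1.52 ± 0.32 (limma, adjusted p = 0.00153), a call lost under median centring (0.49) and on the Cy3 level alone (0.59). Atp5g2 was at 0.73 and 0.69 in heart and 0.68 and 0.85 in muscle, a difference of -0.06 ± 0.21. Against the mean of the other tissues both were higher in heart, by 2.16 ± 0.24 and 1.02 ± 0.16. The call of Atp5g2 was lost under median centring (0.75), and its difference came just under the minimum of 1 with slide (0.998) or scan day (0.951) as a random block and without the first heart array (0.999) or the first large intestine array (0.988). The difference between the paralogues in these contrasts was not tested. When the 106 probes, each 60 bases long, were aligned in pairs without gaps, at most 31 positions matched.

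The promoters of the Atp5g pair and of Uqcrh and Cox8a, whose values are given above, are shown for context. Each run is the 250 bases before the annotated start in RefSeq (GRCm38.p6), on the strand of the gene, with matches to the motifs given below in capitals.
Atp5g1, chr11:96075632-96075881, minus strand: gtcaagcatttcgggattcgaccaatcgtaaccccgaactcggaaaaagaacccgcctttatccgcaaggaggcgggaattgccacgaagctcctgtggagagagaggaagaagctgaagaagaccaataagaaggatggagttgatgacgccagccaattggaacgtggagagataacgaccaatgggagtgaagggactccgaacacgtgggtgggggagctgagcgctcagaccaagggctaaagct
Atp5g2, chr15:102671048-102671297, minus strand: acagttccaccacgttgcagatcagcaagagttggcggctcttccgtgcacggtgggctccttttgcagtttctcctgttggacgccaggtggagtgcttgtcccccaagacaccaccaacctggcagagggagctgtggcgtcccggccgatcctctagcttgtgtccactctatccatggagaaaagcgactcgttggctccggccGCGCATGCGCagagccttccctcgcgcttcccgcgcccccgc
Uqcrh, chr4:116075071-116075320, minus strand: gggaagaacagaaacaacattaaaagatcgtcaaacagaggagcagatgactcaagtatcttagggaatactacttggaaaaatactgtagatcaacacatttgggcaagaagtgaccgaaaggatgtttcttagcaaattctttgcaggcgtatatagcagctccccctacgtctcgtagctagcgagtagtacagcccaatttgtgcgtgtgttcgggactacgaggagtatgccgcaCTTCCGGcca
Cox8a, chr19:7217617-7217866, minus strand: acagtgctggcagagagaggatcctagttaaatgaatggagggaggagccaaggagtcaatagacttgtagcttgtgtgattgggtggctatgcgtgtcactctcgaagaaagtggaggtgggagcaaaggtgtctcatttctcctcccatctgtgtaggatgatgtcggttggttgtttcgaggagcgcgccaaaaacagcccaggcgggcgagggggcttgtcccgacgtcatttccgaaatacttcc
The capitals in Atp5g2 are an NRF1 match and those in Uqcrh an ETS match. Atp5g1 held no match in this stretch, and in Cox8a the window held 2 ETS matches, across the start itself and after it, neither within the stretch shown.

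Over the whole class, 92 of the 106 genes had a RefSeq promoter window (97 windows of 300 bases, from 250 before to 50 after the start). They were searched on both strands for GCATGCGC (the core bound by NRF1), CCGGAAG (ETS factors, which include GABP), AAGATGGCG (YY1) and CAAGGTCA (ERR receptors). ETS letters were found in 33% of the windows, beside 8.86% of all 32851 windows of the mouse table. NRF1 letters were in 12.4% beside 2.71%, YY1 in 11.3% beside 1.4%, and ERR in 5.15% beside 1.56%. None of the 4 was found in 49.5%, beside 86.5% of all windows. By class, ETS letters were in 27.7% of the windows of respiratory subunits and 39.4% of those of ribosome proteins, and NRF1 letters in 12.8% and 15.2%. A match is a description of the sequence and no test was made. None of the 4 motifs contains another, and a single NRF1 site can match on both strands, as in Atp5g2. The windows of all genes were not matched for CpG islands. The paper reports GABP, NRF1 and YY1 motifs as enriched in promoters of its non-responsive genes with CpG islands. The higher shares here were therefore not shown to be particular to mitochondrial genes.

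Members of import families were also followed. Tomm40l, a pore-like relative of Tomm40, was at 2.72 on both heart arrays and differed from the other tissues by 1.52 ± 0.18 (limma, adjusted p = 1.92e-06). Tomm40 itself, the main pore of the outer membrane, had a difference of 0.39 ± 0.17 and was not called. Timm17a was higher in heart by 1.47 ± 0.19, and Timm17b, highest in muscle (0.56 and 0.46), had a difference of 0.22 ± 0.20. Timm8a2 was lowest in muscle and kidney. Among the ribosome proteins Mrpl55, a large-subunit protein, was at 2.65 and 2.62 in heart and at -0.04 and -0.16 in lung, and was higher in heart by 1.75 ± 0.11 (limma, adjusted p = 4.25e-10). Its profile was the most like the median of the large subunit (r = 0.89), and that of Mrps22 the most like the median of the small subunit (r = 0.86).

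Other mitochondrial genes were counted from lists to set beside the 106. Only listed genes with a symbol in the shortened copies of the study's probe lists could be counted. These were 8 of 20 for fatty acid oxidation, 9 of 18 for the tricarboxylic acid cycle, 11 of 23 for assembly, carriers and cristae, 15 of 25 for mitochondrial DNA and translation, and 5 of 10 for chaperones and proteases. The shares of all probes to read them against are those above, 9.68% higher in heart, 10.6% higher in muscle, 9.17% higher in heart than in muscle and 11.2% higher in kidney than in bladder. Fatty acid oxidation genes were all higher in heart than in the mean of the other tissues (8 of 8, median 2.47), led by the acyl-CoA dehydrogenases Acadm (3.24; limma, adjusted p = 1.64e-07) and Acadl (3.23) and by Hadhb (3.20), a subunit of the trifunctional protein. Of these genes 7 of 8 were also higher in heart than in muscle, and 3 of 8 under median centring, beside 4.93% of all probes. Hadhb was at 4.77 and 4.76 in heart and 2.31 and 2.80 in muscle. Tricarboxylic acid cycle genes were higher in heart for 8 of 9 (median 1.79; Dld 2.27, Fh1 2.05), and 0 of 9 passed between heart and muscle, where their median was 0.50 and turned to -0.09 under median centring. In muscle 5 of 9 were higher than in the other tissues (7 without large intestine, fat and bone), led by Idh3a (2.01), which catalyses the NAD-linked oxidation of isocitrate.

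Assembly factors, carriers and cristae proteins were higher in heart for 9 of 11 (median 1.84), including Atpaf1 (2.37), an assembly factor of complex V, and Mfn2 (2.23), a mitochondrial fusion protein. Factors of mitochondrial DNA upkeep and translation passed for 4 of 15 (median 0.80; Ptcd3, which binds the small mitochondrial ribosomal subunit, 2.11), and 1 of 15 under median centring, beside 6.91% of all probes. Mitochondrial chaperones and proteases passed for 3 of 5 in heart, and 2 without large intestine, fat and bone, where the heart counts of the other mitochondrial lists were the same. In kidney 4 of 5 were higher than in bladder, led by the chaperonin Hspd1 (2.68; limma, adjusted p = 1.18e-05), which was at -0.06 and -0.11 in kidney and -2.76 and -2.77 in bladder.

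Proteins of the cytosolic ribosome were counted in the same way. Of 24 cytosolic ribosomal proteins none was higher in heart and 1 was lower, Rpl41 (-1.05), beside 9.16% of all probes, with a median of -0.44; without large intestine, fat and bone none was lower. In skeletal muscle 10 of 24 were lower than in the other tissues, beside 15.9% of all probes (median -0.94), but 3 under median centring, beside 14.5% (median -0.15). In kidney 19 of 24 were lower than in bladder, beside 11.8% of all probes (median -1.49), and 19 under median centring, beside 13.1%, while 0 of the 35 mitochondrial ribosome proteins were lower. Rps14, a small-subunit protein, was at -3.15 and -2.34 in kidney and 0.09 and -0.12 in bladder (-2.73; limma, adjusted p = 1.17e-06).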

How the data were processed

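RNA of 15 tissues was measured on 30 two-colour arrays. The authors extracted the spots with Agilent Feature Extraction (version 9.5.1.1 per the file headers) and deposited, per spot and channel, intensity in scanner units with other values that flag outliers, saturation and signal above background. The authors' value table, on a log10 scale, followed the processed Cy3 signal with the variation of the reference removed (R² 0.9999 over 11667 bright probes).

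Here the mean signals were background-corrected by normexp (offset 50) and loess-normalised within arrays, and log2(Cy3/Cy5) was averaged per probe. The filter asked for Cy3 well above background on every array of 1 or more tissues. limma 3.58.1 (R 4.3.3) fitted 1 coefficient per tissue over all 30 arrays (15 residual degrees of freedom, prior SD 0.22). This main fit held no block for slide or scan day, within which the correlation was 0.69 and 0.59. Several organs, among them heart, liver, kidney and bladder, had both arrays on 1 slide. The spread between their replicates leaves out slide differences, so p values of comparisons across slides may be too small. Tests were two-sided, adjusted by Benjamini and Hochberg over all probes within each of 6 comparisons. Errors of differences are standard errors. For bone and fat the spread between arrays may be technical. The fit was tested on simulated data.

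The members, lists, motifs and tests were chosen with earlier results of these data known. Named genes are, per comparison, the 3 called members with the largest difference in each direction whose arrays do not overlap, the 5 widest and 5 narrowest ranges, the members most and least like their class, and the families Atp5g, Mrps18, Tomm40, Timm17 and Timm8a2. Not all are printed, and a few others were chosen after their values were seen. Of the symbols 103 were current and 3 were synonyms in RefSeq's mouse gene table. Replicate numbers did not pair the arrays: over 105 pairs of tissues, deviations of same-numbered arrays correlated at -0.25 to 0.34 (median 0.05).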

Additional observations from a re-analysis of the deposited data

How the results depend on the processing

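Heart against the other tissues (68 higher) and heart against liver (62 higher) stayed within 1.5 times their counts under all 16 alternatives that applied other than single arrays left out. The F-test count did too. Among the alternatives, the processed signals and the authors' value table hold nearly the same values and are not separate checks. Counts in muscle and kidney moved with the scaling. With the scanner software's processed signals, muscle had 41 higher (main 18), beside 16.2% of all probes, and kidney 5 (main 2), beside 12.8%. Under median centring these were 57 and 21, heart against muscle fell to 5 (main 33) and kidney against bladder to 28 (main 47), and the ribosome median between heart and muscle reversed to -0.164. On the Cy3 level alone muscle had 32, heart against muscle 9, and the members lower against liver and against bladder 0 (main 1 each). In the authors' value table muscle had 41 and kidney 5. With scan day as a random block muscle had 28, beside 10.9%, and Timm17b was lower in heart than in muscle (1, main 0). The cause was not tested.

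With no minimum difference the counts of higher members were 64 (muscle, 21.1% of all probes), 59 (kidney, 17.7%), 59 (heart against muscle, 13.9%) and 82 (kidney against bladder, 15.7%), and those of lower members 1 (heart, 23.3%), 5 (muscle, 32.2%), 2 (kidney, 24%), 1 (heart against muscle, 10.4%), 8 (heart against liver, 17.9%) and 2 (kidney against bladder, 16.9%), since the alternative drops the threshold.

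Leaving out 1 array at a time gave 105 to 106 members in the F-test, 67 to 69 higher in heart, 12 to 28 in muscle (28 without muscle 1), 2 to 4 in kidney (4 without fat 1), 27 to 38 for heart against muscle, 58 to 63 against liver and 42 to 47 for kidney against bladder. The lower counts stayed at 0 in heart, 1 in muscle, 0 in kidney, 0 for heart against muscle, 1 against liver and 1 against bladder. With a replicate block (same-numbered arrays share only a number) the counts of higher members were 68, 18, 2, 33, 62 and 47, and no call was added or lost by count. Slide as a fixed block could be fitted only within a slide, for heart against liver (62) and kidney against bladder (47).

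Settings added after the data were seen, without large intestine, fat and bone and without bone, gave 70 and 68 in heart, 18 and 21 in muscle, 3 and 3 in kidney, and 35 and 33 for heart against muscle. For the called members whose differences are printed, 1427 values kept their call and 13 did not. These were Cox7b between heart and muscle under median centring (1.17, adjusted p = 0.0569, limma), Tomm70a and Timm8a2 on the Cy3 level alone, and the cases of Atp5g1, Atp5g2 and Cox7a2 given in the text. Of the class medians under other settings 496 moved by less than the spread between arrays, 41 by more and 1 reversed. Both tallies include the fits with 1 array left out. In a comparison of 2 tissues, leaving out an array of any other tissue cannot move the difference. The printed members were also chosen mainly for large differences. The tallies are therefore no measure of robustness. With 2 arrays per tissue, differences near 1 log2 unit have the least certain calls.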
